A study of Mus musculus with 96 samples.

Results

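Mouse liver that spent 18 hours in formalin before ethanol was compared with liver from the same animals that was kept in ethanol only. The comparison uses 24 of the 96 libraries of the series, chosen by the state and animal code in their titles: 12 libraries from formalin portions and 12 from ethanol portions. The formalin portions had 18 hours in 10% buffered formalin and were then moved to 70% ethanol until 3 months had passed. The ethanol portions had 3 months in 70% ethanol, and the series treats them as the control for the fixative. Each state holds 1 portion from each of the same 12 male B6C3F1 mice, 10 to 11 weeks old, of which 6 drank phenobarbital at 600 ppm for 7 days and 6 drank water at 0 ppm. Phenobarbital is a barbiturate that switches on drug-metabolising enzymes of the liver, above all Cyp2b10, through the receptor CAR. All portions were cut from pieces of several lobes that had been mixed and flash-frozen, so freezing, ethanol at 4 °C, paraffin embedding and block storage for up to 4 months were common to both states. Whole sections of liver were used, so each library is a mixture of cell types. Frozen portions of the same livers (12 libraries) and portions held in formalin for 3 months (12 libraries) are given as reference levels without a test. Frozen RNA was isolated by a procedure of its own, so preservation and isolation cannot be told apart in any level set against frozen liver. The labels introduce the isolation from ethanol and formalin blocks together, but its details are not in the sources used here. Whether both had the same kit and the same step to reverse cross-links is therefore not known, and the differences below belong to the preserved and extracted portions, in which fixation and extraction cannot be told apart.

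Ethanol preserves tissue by taking away water and precipitating protein, whereas formaldehyde adds methylol groups to the bases of RNA and cross-links RNA to protein. RNA from formalin-fixed tissue therefore has to be released by heat and protease, and it is known to be fragmented and to be copied less efficiently. The libraries were made from total RNA after removal of ribosomal RNA, with no selection for poly(A) tails, so they also hold the structured noncoding RNAs that a poly(A) library lacks. These RNAs sit in tight RNA-protein particles: small nucleolar RNAs (snoRNAs) guide the chemical modification of ribosomal RNA, Cajal-body RNAs (scaRNAs) do the same for spliceosomal RNAs, Rpph1 and Rmrp are the RNA subunits of RNase P and RNase MRP, Rn7sk holds back the transcription elongation factor P-TEFb, and the Y RNAs bind the Ro60 protein.

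Small structured RNAs made up most of the large rises, and 5 of them are shown so that their length and conserved boxes can be seen beside the values below. The letters come from the GENCODE M21 transcripts (build GRCm38), written 5′ to 3′ as DNA. Capitals mark the longest run that both Y RNAs have in common, the C box (TGATGA) and D box (CTGA) of the snoRNAs, and an Sm-type run (ATTTTTTGG) in the U11 small nuclear RNA Rnu11. Snord15a rose, and Snord17 is shown as a box C/D snoRNA for which no change was called.
Rny1: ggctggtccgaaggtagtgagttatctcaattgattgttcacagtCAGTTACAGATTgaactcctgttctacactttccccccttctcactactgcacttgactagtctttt
Rny3: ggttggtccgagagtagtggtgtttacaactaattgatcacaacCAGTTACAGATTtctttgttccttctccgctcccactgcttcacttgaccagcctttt
Snord15a: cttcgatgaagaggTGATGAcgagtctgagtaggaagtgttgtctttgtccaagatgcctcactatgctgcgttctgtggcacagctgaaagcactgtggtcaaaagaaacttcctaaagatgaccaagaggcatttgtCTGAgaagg
Snord17: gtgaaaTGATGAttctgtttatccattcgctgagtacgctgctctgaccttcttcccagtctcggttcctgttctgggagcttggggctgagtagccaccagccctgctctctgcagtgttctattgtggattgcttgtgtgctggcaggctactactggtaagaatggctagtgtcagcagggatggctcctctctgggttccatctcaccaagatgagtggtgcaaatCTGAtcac
Rnu11: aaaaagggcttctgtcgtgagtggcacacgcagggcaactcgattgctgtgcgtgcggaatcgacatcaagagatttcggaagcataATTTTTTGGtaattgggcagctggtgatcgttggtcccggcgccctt
Rny1 lies at chr6:47788069-47788180 on the minus strand and Rny3 at chr6:47781624-47781725 on the plus strand, so the pair are neighbours. Snord15a is at chr7:99482785-99482932 (minus) inside the ribosomal protein gene Rps3, Snord17 at chr2:144265979-144266216 (minus) and Rnu11 at chr4:132270080-132270213 (minus). Each is annotated as a single-exon noncoding gene.

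Before the tests, the libraries themselves were compared in 11 measures, each by an exact two-sided permutation of the signs of the 12 paired differences, with Benjamini-Hochberg adjustment over the 11. The smallest p that 12 pairs allow is 0.000488, and it adjusts to 0.00107 here. Counted reads ranged from 9977406 to 16084964 a library, with a mean of 14079808 ± 1361440 (SD, n = 12) in ethanol and 12031997 ± 1406972 in formalin (higher in formalin in 2 of 12 animals, adjusted p = 0.0181). At equal depth the number of genes detected was 19395 ± 278 in ethanol and 19422 ± 314 in formalin, higher in formalin in 5 of 12 animals (adjusted p = 0.740). The 10 highest genes took 15.4 ± 1.08% of reads in ethanol and 13.7 ± 1.27% in formalin, lower in 12 of 12 animals (adjusted p = 0.00107). Gm26917, one of the 10 most abundant genes, went from 1.64% of reads in ethanol to 0.585% in formalin. Its counts are uncertain, because its locus is known to carry sequence shared with ribosomal RNA. Whether the share of the highest genes also falls without Gm26917 was not tested. The share of small structured RNAs rose from 1.15 ± 0.153% to 2.33 ± 0.513%, higher in 12 of 12 animals, against 1.12% in frozen liver. The share of long noncoding RNAs fell from 3.49 ± 0.718% to 1.90 ± 0.270%, lower in 12 of 12 animals, against 2.20% in frozen liver, and a single gene, Gm26917, accounted for 1.05 of the 1.59 percentage points (adjusted p = 0.00107 for both shares). The share of mitochondrial transcripts was 2.74% in ethanol and 2.59% in formalin (adjusted p = 0.469), and that of protein-coding genes was 94.8% and 95.3% (adjusted p = 0.184).

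Most genes differed by a little between the states and few by much. In edgeR's quasi-likelihood test with the animal as a block and Benjamini-Hochberg adjustment, 8053 of 13736 genes tested (58.6%) had an adjusted p of at most 0.05. Of all genes tested, 29.4% were higher in formalin (4034) and 29.3% lower (4019), and these are the shares against which each group below is read. The even split follows from the trimmed-mean (TMM) scaling. With library totals alone the median of all genes shifts by 0.078 on the log2 scale, and 5423 genes are called higher and 2771 lower, so that 66.2% of calls are higher in place of 50.1%. Of the called genes, 7197 (89.4%) differed by less than 1.5-fold, and the median absolute log2 fold change over the called genes was 0.28. Paired differences had the same sign in 12 of 12 animals for 1705 genes higher and 1728 genes lower in formalin. Without the block the same test called 5812 genes, of which 5805 were among the 8053.

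Changes of at least 2-fold separate by kind of transcript. In the same test 74 genes rose (0.539% of those tested) and 83 fell (0.604%) by at least 2-fold. Of the 74, 61 were small structured RNAs, 7 were protein-coding and 6 were of other kinds. Of the 83, 39 were protein-coding, 43 were of other kinds, among them 24 pseudogenes, and 1 was a small structured RNA. Of the 13736 genes tested, 12081 were protein-coding, 297 were pseudogenes and 115 were small structured RNAs. Protein-coding genes were thus a smaller part of both the rises and the falls than of all genes tested. All 12 formalin libraries lay above all 12 ethanol libraries for 204 genes (1.49%) and below them for 236 (1.72%).

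**Figure D1:**
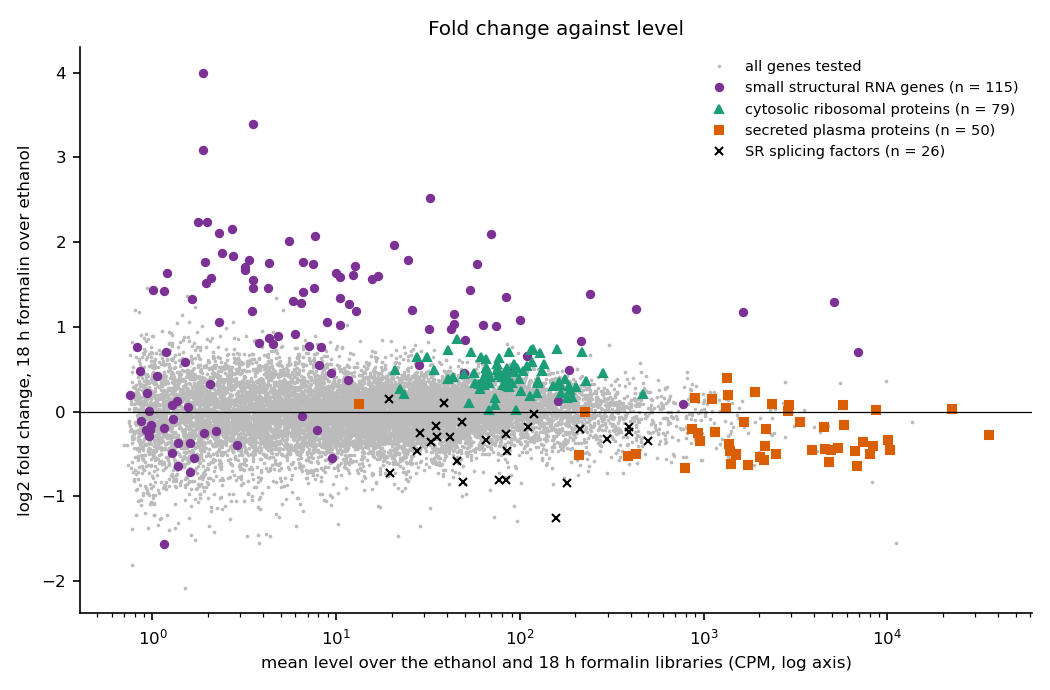
The difference between formalin and ethanol (log2 fold change, vertical axis) is plotted for each of the 13736 genes tested against its mean level (CPM, log axis), with small structured RNAs, ribosomal proteins, secreted plasma proteins and the SR splicing factor list marked and all other genes in grey. Small structured RNAs lie mostly above 0, with a median of 1.04, while the bulk of the genes lies within 0.63 of 0, the 95th percentile of the absolute value.

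Small structured RNAs rose as a class after formalin. Of the 115 tested, 84 rose and 8 fell, with a median log2 fold change of 1.04, against a median of -0.00075 over all 13736 genes. A gene was tested if it had enough counts in either state, so members high only in formalin entered and these values can lean upward. The largest rises were near the floor in ethanol: Gm23153 at 0.218 CPM, Gm26316 at 0.556 CPM and Gm25813 at 0.384 CPM. The same limit holds for the 61 rises of at least 2-fold, the counts by type and family, and those set against host genes. With the trend over GC content and length removed from all genes, the class median was 0.63. By annotated type, 43 of 50 snoRNAs rose and 1 fell (median 1.23), 10 of 11 scaRNAs rose (1.09), 12 of 16 small nuclear RNAs rose (1.34), all 3 ribozyme RNAs rose (1.21), and 12 of 19 in the mixed class that holds the Y RNAs and Rn7sk rose while 3 fell (0.92). The microRNA class, annotated as hairpin genes and not as mature microRNAs, divided evenly: 4 of 16 rose and 4 fell, with a median of -0.01. Of its mean sum of 1068 CPM in ethanol, Gm23935 held 786 CPM. Gm23935 and the risers Gm24187 and Mir6236 stood 1.74, 1.38 and 1.43 above frozen liver in ethanol (log2 differences). Whether their reads come from hairpins was not tested. As shares of all reads, snoRNAs went from 0.0662% to 0.137%, scaRNAs from 0.0322% to 0.0789% and small nuclear RNAs from 0.0204% to 0.0451%, each higher in 12 of 12 animals. Frozen liver had 0.0805%, 0.0338% and 0.0314% for these classes.

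The most abundant members were separated completely. Levels are CPM values, the gene's share of a library's counts after TMM scaling on the usual per-million basis, given as lowest, median and highest of 12 libraries. The RNase P RNA Rpph1 was at 2319, 2876 and 3722 CPM in ethanol and at 4333, 6924 and 11265 CPM in formalin, and no formalin library reached down to the ethanol range. Its log2 fold change was 1.29 ± 0.09 (SE; adjusted p = 2.5e-11), with 3269 CPM on average in frozen liver and 6266 CPM after 3 months of formalin. Rmrp was at 889, 985 and 1131 CPM in ethanol and at 1227, 2362 and 3010 CPM in formalin (1.17 ± 0.07, adjusted p = 1.2e-12), again without overlap. Rn7sk was at 4151, 5332 and 5961 CPM in ethanol and at 6214, 8502 and 12505 CPM in formalin, a log2 fold change of 0.70 ± 0.06 (adjusted p = 3.0e-10). Ethanol portions stayed near frozen liver for these RNAs, which had 1172 CPM of Rmrp and 5565 CPM of Rn7sk on average when frozen.

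RNAs with lower counts ranged from no call to rises of over 2-fold. The scaRNA Scarna6 was at 21.6, 29.9 and 34.4 CPM in ethanol and at 46.5, 60.5 and 74.9 CPM in formalin (log2 fold change 1.04 ± 0.05, adjusted p = 2.2e-14), with no overlap. Snord13, which is needed for the acetylation of a cytidine in 18S ribosomal RNA, was at 0.661, 1.93 and 3.04 CPM in ethanol and at 2.08, 7.99 and 23.7 CPM in formalin. It was higher in 12 of 12 animals although the ranges overlap (2.02 ± 0.21, adjusted p = 9.4e-09). Snord15a, from the intron of Rps3, was at 3.62, 5.22 and 7.20 CPM in ethanol and at 4.43, 15.6 and 26.7 CPM in formalin, higher in 11 of 12 animals (1.59 ± 0.16, adjusted p = 6.1e-09). Snord17 did not follow them, at 109, 164 and 177 CPM in ethanol and 101, 160 and 320 CPM in formalin, with 6 of 12 animals higher (0.13 ± 0.09, adjusted p = 0.241).
The Y RNAs shown above rose in 11 of 12 animals each. Rny1 was at 2.32, 5.38 and 8.58 CPM in ethanol and at 3.26, 18.1 and 39.997 CPM in formalin (1.72 ± 0.21, adjusted p = 1.2e-07). Rny3, named after its values were seen, was at 3.83, 9.72 and 18.0 CPM in ethanol and at 6.06, 37.1 and 78.3 CPM in formalin (1.79 ± 0.23, adjusted p = 3.1e-07). Both were higher still after 3 months of formalin, at means of 163 and 325 CPM. Rnu11, which recognises the 5′ splice site of minor-class introns, was at 1.79, 3.92 and 6.81 CPM in ethanol and at 4.62, 11.5 and 17.0 CPM in formalin (1.46 ± 0.15, adjusted p = 8.4e-09). Its partner Rnu12 rose by less (0.76 ± 0.16, adjusted p = 0.00032), and both were up in 11 of 12 animals. Rnu12 averaged 12.7 CPM in frozen liver, and its formalin portions (mean 10.4 CPM) lay below frozen in 9 of 12 animals. Snord17 averaged 213 CPM when frozen, above the means of both states (152 and 171 CPM). Ethanol lay below frozen in 11 of 12 animals for Rny1 and for Rny3 (frozen means 8.94 and 18.0 CPM). Formalin means exceeded frozen for both Y RNAs, Scarna6 (35.3 CPM frozen), Snord13 (2.42), Snord15a (5.29) and Rnu11 (5.22).

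**Figure D2:**
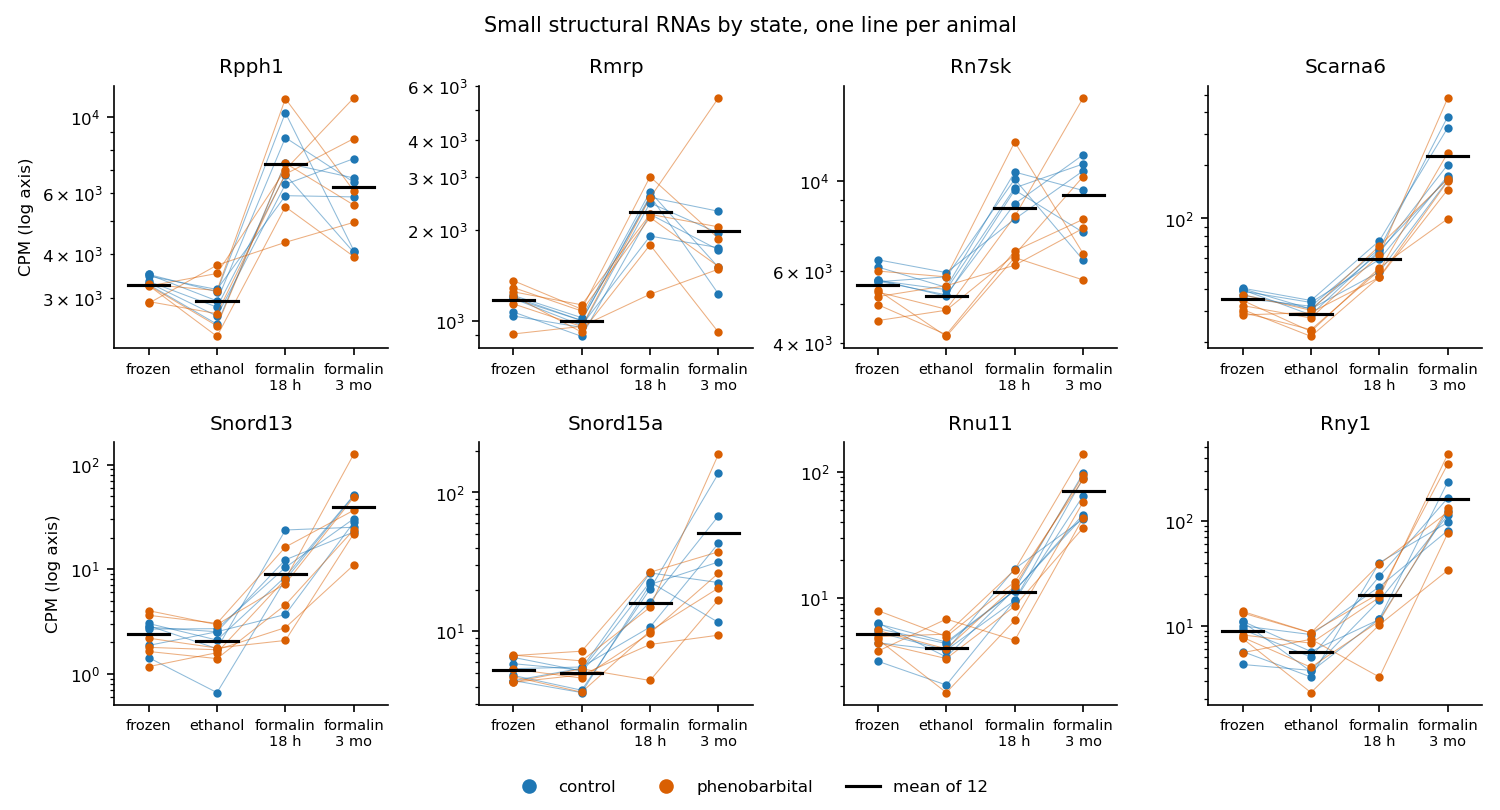
Levels of 8 small structured RNAs (CPM, log axis) in the frozen, ethanol, 18-hour formalin and 3-month formalin portions, with points for libraries, a line for each of the 12 animals coloured by treatment, and a bar at the mean of 12. Rpph1, Rmrp, Rn7sk and Scarna6 show no overlap between ethanol and 18-hour formalin, and in the lower row 1 line is flat or falls for Snord15a, Rnu11 and Rny1.

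A single animal had a median difference near 0. In the phenobarbital-treated animal 75C the median paired difference over the 115 small structured RNAs was 0.0056 on the log2 scale, and 60 of the 115 were above 0. In the control animal 21C the median was 0.44, and in the other 10 animals it lay between 0.77 and 1.51. The small-RNA share of 75C went from 1.298% to 1.575%, and its mitochondrial share from 3.43% to 1.98%. The same animal had the lowest median rise of ribosomal protein messages, 0.13 against 0.25 to 0.64 in the other 11.

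Most of these RNAs rose more than the genes that contain them. Of the snoRNAs and scaRNAs, 48 lie inside exactly 1 tested gene on the same strand (41 host genes). Of these 48, 43 rose and 0 fell, with a median log2 fold change of 1.36, while 21 of the 41 hosts rose and 13 fell, with a median of 0.13 and a range of -0.68 to 0.78. The small RNA exceeded its host in 43 of 48 cases. Rps3, the host of Snord15a, rose by 0.26 and Atg16l1, the host of Scarna6, fell by 0.24 on the log2 scale, against 1.59 and 1.04 for the small RNAs. Reads of a small RNA and of the intron around it lie on the same strand and are not fully separable in gene counts.
Both families of snoRNA were affected. A snoRNA was put in the C/D family when TGATGA lay in its first 45 bases and CTGA in its last 20, and in the H/ACA family when ACA lay in its last 8 bases and CTGA was not in the last 20, read on the transcript's own strand. Of 1507 annotated snoRNA genes 21.5% met the first rule and 41.1% the second. Of the tested genes, 7 of 8 with C/D letters rose (median 1.12) and 32 of 35 with H/ACA letters rose (median 1.27), and none of these fell. The H/ACA members tested were 100 to 246 bases long and the C/D members 70 to 238, while the median length of all annotated C/D genes was 79 bases, so few of the shorter ones were counted often enough to be tested.

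Splicing regulators were among the genes that fell most steadily. Srsf5, an SR protein that binds exonic splicing enhancers, was at 177, 216 and 274 CPM in ethanol and at 74.97, 89.99 and 121 CPM in formalin. The 24 libraries did not overlap, and the log2 fold change of -1.25 ± 0.03 had the smallest adjusted p of the whole comparison (2.7e-19). Frozen liver had 166 CPM and liver after 3 months of formalin 59.1 CPM, so the ethanol portions were above frozen liver and the formalin portions below it. Rsrp1, an arginine- and serine-rich nuclear protein, was at 185, 225 and 276 CPM in ethanol and at 105, 129 and 154 CPM in formalin (-0.84 ± 0.04, adjusted p = 4.9e-15), against 114 CPM in frozen liver. For Rsrp1 it was the formalin portions that lay near the frozen level. The kinases Clk1 and Clk4, which phosphorylate SR proteins, fell by 0.81 ± 0.04 and 0.83 ± 0.04 on the log2 scale, with no overlap for either.
The list of SR splicing factors also holds the Clk kinases and other splicing-related genes such as Ddx5, Luc7l and Son. Of its 26 members tested, 23 fell and 2 rose, with a median of -0.31. The list stood 0.23 above frozen liver in ethanol and 0.09 below it in formalin (medians of log2 differences). Srsf9 was one of the rises (0.15 ± 0.04, adjusted p = 0.0041, 11 of 12 animals), and the abundant Srsf1 gave no call, at medians of 117 CPM in ethanol and 116 CPM in formalin. In animal 75C the list's median paired difference was -0.13, and in the other 11 animals it lay between -0.39 and -0.24. As background, the transcripts of many SR genes are known to keep introns or poison exons and to stay in the nucleus.

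Long RNAs of the nucleus fell as well. Of 15 nuclear long noncoding RNAs tested, 14 fell and 1 rose (median -0.63), or 9 lower without the animal as a block. Malat1, an abundant RNA of nuclear speckles, was at 8542, 10428 and 12769 CPM in ethanol and at 4603, 6157 and 7425 CPM in formalin (-0.83 ± 0.05, adjusted p = 7.9e-13). All 12 formalin libraries lay below the ethanol range and below the frozen mean of 9823 CPM. Neat1, the scaffold of paraspeckles, was at 1089, 1886 and 4602 CPM in ethanol and at 804, 1442 and 2655 CPM in formalin. It was lower in 12 of 12 animals, although animals differ so much that the ranges overlap (-0.63 ± 0.05, adjusted p = 5.6e-11). Peg13, an imprinted RNA, was the exception and rose by 0.32 ± 0.06 (adjusted p = 2.2e-05) in 12 of 12 animals.
Gm26917, annotated as a long intergenic RNA at chr17:39843013-39846341, took more reads in ethanol than any other noncoding gene tested: 11826, 15459 and 24734 CPM in ethanol and 3830, 5495 and 8561 CPM in formalin (-1.55 ± 0.10, adjusted p = 4.7e-12). It alone held 1.64% of reads in ethanol, 0.585% in formalin and 0.700% in frozen liver. Its locus is known to carry sequence shared with ribosomal RNA, so its counts are uncertain, and how completely ribosomal RNA was removed from each library is not given in the sources used here. In other noncoding types few genes rose, and the share that fell lay on both sides of the 29.3% over all genes. Many had no call, with 107 of 195 lincRNAs and 110 of 183 antisense genes against 5683 of all 13736 genes. More genes fell than rose in each type below, with median log2 fold changes between -0.12 and -0.20. Of 195 lincRNAs 67 fell (34.4%) and 21 rose, and of 183 antisense genes 58 fell (31.7%) and 15 rose. Of 91 sense-intronic genes 23 fell (25.3%) and 2 rose, and of 535 genes of the annotated type TEC 121 fell (22.6%) and 18 rose. Processed transcripts fell more often, with 56 of 144 lower (38.9%) and 7 higher. Of 297 pseudogenes 119 fell (40.1%) and 58 rose (19.5%). Antisense and overlapping genes depend on strand in the counting, and pseudogenes can share reads with their parents, so the values of single members are uncertain.

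Among named genes averaging 5 CPM or more, the protein-coding genes that fell most had varied roles. Josd2, a deubiquitinase, was at 32.1, 39.0 and 59.3 CPM in ethanol and at 13.2, 15.6 and 21.4 CPM in formalin (-1.35 ± 0.06, adjusted p = 5.5e-15). Hsd3b7, an enzyme of bile acid synthesis, was at 11.3, 14.0 and 21.7 CPM in ethanol and at 3.47, 6.24 and 7.66 CPM in formalin (-1.33 ± 0.08, adjusted p = 3.5e-12). Col5a3, a fibrillar collagen chain, was at 67.4, 102 and 153 CPM in ethanol and at 29.3, 44.7 and 53.3 CPM in formalin (-1.24 ± 0.05, adjusted p = 3.6e-15). None of these 3 overlapped between the states. Their frozen means were 18.38, 10.0 and 50.02 CPM, closer to the formalin than to the ethanol portions for Josd2 and Col5a3. Akap8l, a nuclear anchoring protein, fell by 1.13 ± 0.06 and the kinase Mapk15 by 1.35 ± 0.10 on the log2 scale.
Set beside frozen liver, the 39 protein-coding genes that fell at least 2-fold were above frozen in ethanol for all 39 (median log2 difference 0.79) and above frozen in formalin for 3 (median -0.38). The ethanol portions were the nearer to frozen liver for 13 of the 39. For the 74 genes that rose at least 2-fold the picture was the opposite: medians were -0.31 in ethanol and 1.10 in formalin, and ethanol was the nearer for 62. Both states are set against the same frozen samples, and the genes were selected on the difference between the states, so these are descriptions.

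**Figure D3:**
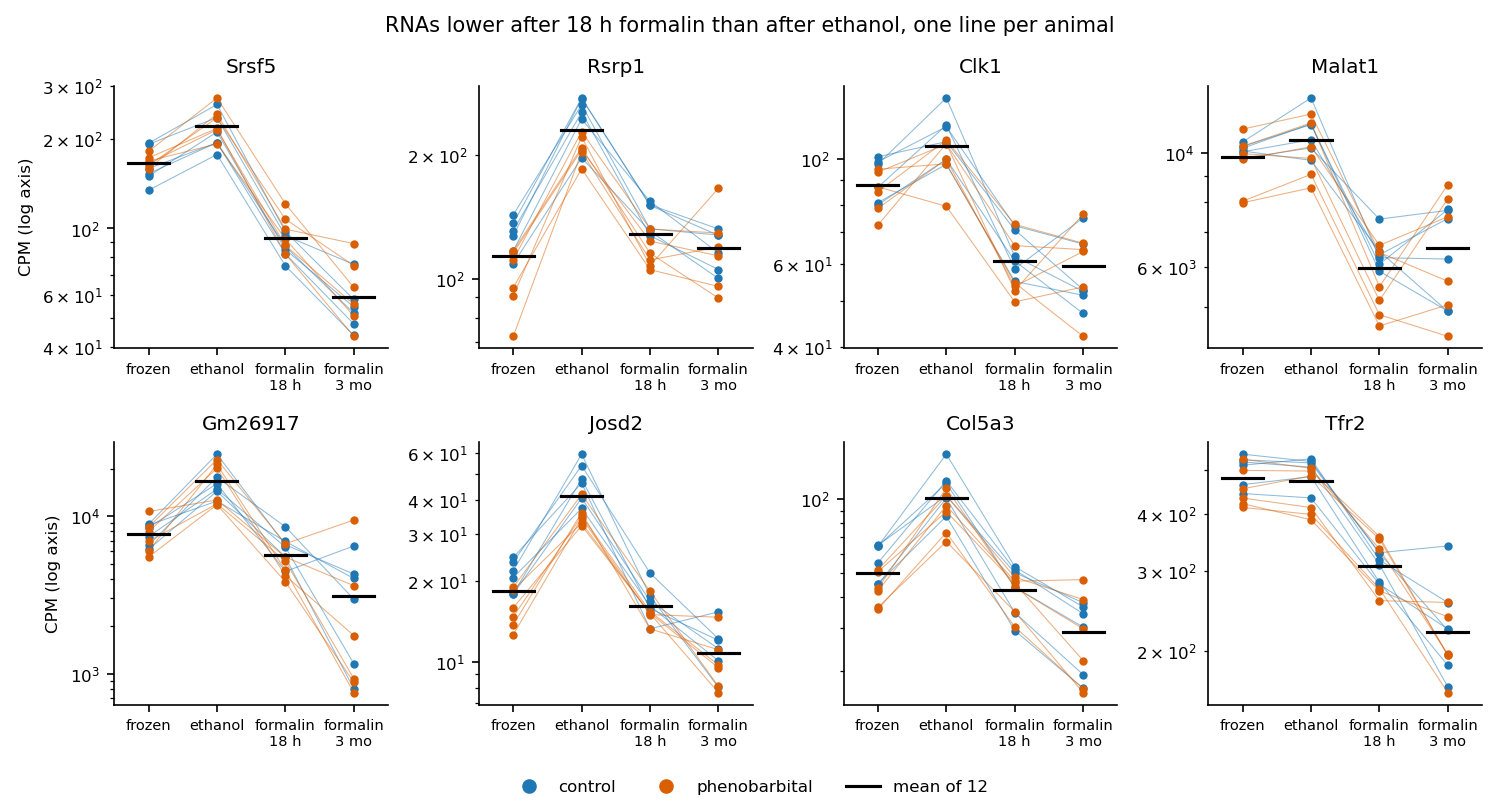
Levels of 8 transcripts that fell after formalin (CPM, log axis) in the frozen, ethanol, 18-hour formalin and 3-month formalin portions, with a line for each of the 12 animals coloured by treatment and a bar at the mean of 12. All 8 are lower in the 18-hour formalin portion than in the ethanol portion in each of the 12 animals. For Rsrp1, Gm26917, Josd2 and Col5a3 the frozen level lies nearer the 18-hour formalin portions.

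Among protein-coding genes, the split between higher and lower followed base composition and length. Genes with a GC content under 40% were called higher in 40.1% and lower in 18.5% of cases, whereas genes above 55% GC were called higher in 16.4% and lower in 43.2%. By transcript length, 53.2% of the 408 genes of 500 to 1000 bases were higher and 9.56% lower, and 15 of the 25 genes under 500 bases were higher and 0 lower. Genes of 2000 to 4000 bases were 27.2% higher and 32.8% lower, and those above 8000 bases were 42.2% higher and 23.3% lower, so the relation to length was not monotonic. Over genes of all kinds, the GC content of the longest transcript, weighted by counts, averaged 48.97% in ethanol and 48.68% in formalin. It was lower in formalin in 11 of 12 animals (adjusted p = 0.0054, exact permutation of signs). Whether it also falls without Gm26917 was not tested.
Protein-coding genes were also split by annotation, a choice made after the values were seen. Of the 7203 tested protein-coding genes for which a retained-intron transcript is annotated, 27.4% were higher and 34.6% lower, and of the 4878 without one, 37.8% were higher and 21.4% lower. Within each of the 5 GC classes the annotated genes were lower more often, at 24.1% against 10.9% in the class of least GC and 52.0% against 31.1% in the class of most GC. With library totals alone the balance of the annotated genes turned, to 2751 higher and 1715 lower. Removing the trend over GC content and length from all fold changes left the median of the plasma proteins at -0.33, from -0.35.

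**Figure D4:**
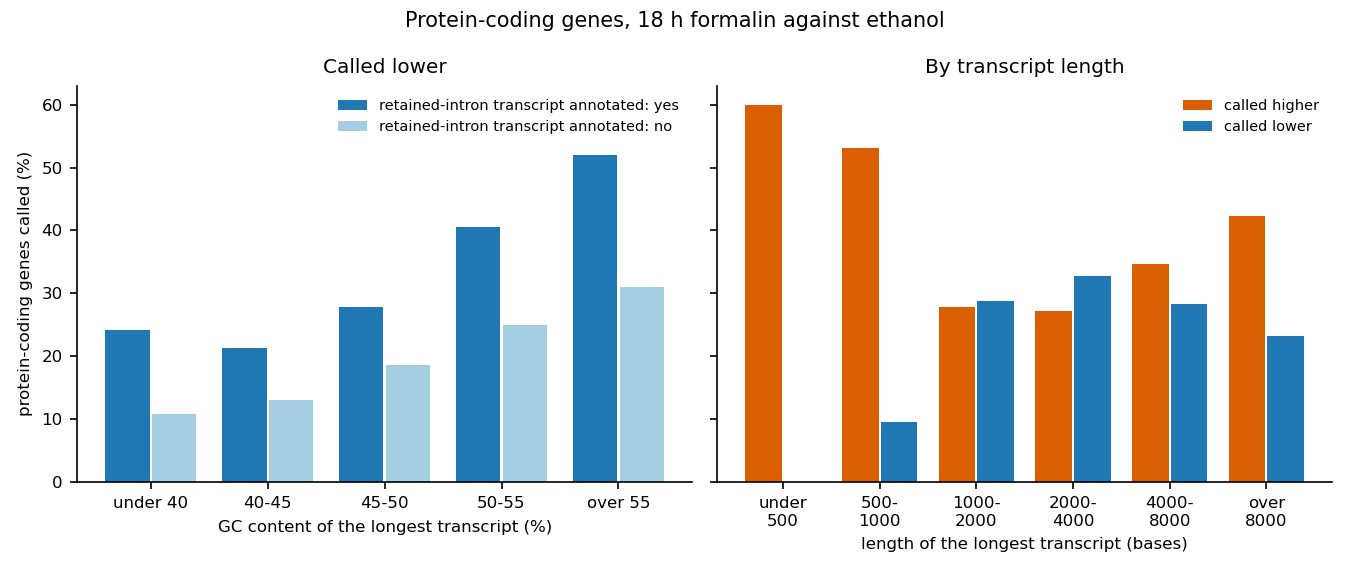
Share of tested protein-coding genes called lower in formalin by GC class, for genes with and without an annotated retained-intron transcript (left), and called higher or lower by length of the longest transcript (right; percent on the vertical axes). Lower calls are more frequent for the annotated genes in all 5 GC classes, and higher calls are most frequent among the shortest genes.

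Messages for the ribosome rose together. Of 79 cytosolic ribosomal protein genes tested, 75 rose and 0 fell, with a median log2 fold change of 0.41 against 29.4% higher over all genes, and 52 rose in 12 of 12 animals. Their summed level went from a mean of 6913 CPM (range 5903 to 8304) to 9138 CPM (7348 to 11622). Rpl32, of the large subunit, was at 94.0, 112 and 160 CPM in ethanol and at 145, 189 and 278 CPM in formalin (0.74 ± 0.04, adjusted p = 2.4e-13). Rps24, of the small subunit, was at 76.4, 84.0 and 111 CPM in ethanol and at 106, 139 and 208 CPM in formalin (0.74 ± 0.04, adjusted p = 2.1e-12). Rpl6 was the abundant exception with no call, at medians of 93.8 and 93.2 CPM. Ribosomal protein genes have many processed pseudogenes, and near-identical copies could share reads with them.
Translation factors were more mixed, with 20 of 34 higher and 7 lower. Tpt1, a small growth-related protein, was at 198, 220 and 255 CPM in ethanol and at 298, 390 and 501 CPM in formalin, without overlap (0.78 ± 0.05, adjusted p = 1.2e-12). The elongation factor Eef1a1 rose by 0.36 ± 0.04, from a median of 2397 to 3084 CPM, and the initiation factor subunit Eif3d fell by 0.28 ± 0.03. Nuclear-encoded respiratory chain genes also leaned upward, with 54 of 76 higher and 6 lower (median 0.20). Cox6c, a small subunit of complex IV, rose by 0.47 ± 0.03 from a median of 112 to 156 CPM, while Ndufv1, the flavoprotein of complex I, fell by 0.38 ± 0.05 and Atp5b gave no call. Of the 7 mitochondrially encoded protein genes tested, 4 fell and 0 rose. For mt-Co1, the most abundant of them, no change was called (-0.12 ± 0.07, adjusted p = 0.119, with 4 of 12 animals higher).

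Secreted plasma proteins, the main product of hepatocytes, fell. Of the 50 tested, 36 fell and 6 rose, with a median of -0.35, or 23 lower and 2 higher without the animal as a block. Itih1, a hyaluronan-binding inhibitor chain, was at 745, 996 and 1212 CPM in ethanol and at 462, 635 and 743 CPM in formalin (-0.66 ± 0.03, adjusted p = 1.9e-13). Apoa1, the main protein of HDL, was at 4684, 5531 and 6801 CPM in ethanol and at 3405, 3659 and 4505 CPM in formalin (-0.59 ± 0.05, adjusted p = 1.0e-09). Neither overlapped between the states. Alb, the gene of albumin and one of the 10 most abundant messages, went from a median of 43370 to 32386 CPM. It was lower in 12 of 12 animals (-0.27 ± 0.05, adjusted p = 2.7e-05), a call that is lost without the animal as a block (adjusted p = 0.078). Apob, whose message is among the longest in liver, did not move with the others (0.03 ± 0.04, adjusted p = 0.442), and Trf, the gene of transferrin, rose by 0.39 ± 0.04 in 11 of 12 animals.
Chaperone and cytochrome P450 genes also had more falls than rises. The chaperones of the endoplasmic reticulum Hspa5, Hsp90b1 and Calr fell by 0.58 ± 0.04, 0.57 ± 0.04 and 0.54 ± 0.04, each in 12 of 12 animals, and for Canx, a membrane-bound chaperone, no change was called (-0.07 ± 0.03, adjusted p = 0.054), although 10 alternatives, among them DESeq2 (adjusted p = 0.043), called it lower. Over the 32 heat shock and chaperone genes 17 fell and 5 rose, or 9 lower without the block. Of 40 cytochromes P450 and redox partners, 28 fell and 3 rose (median -0.18), or 14 lower without the block. Por, the electron donor of the microsomal P450s, fell by 0.63 ± 0.04 and Cyp2d9 by 0.54 ± 0.03, each in 12 of 12 animals. Cyp2e1, which metabolises ethanol, fell by 0.19 ± 0.05, from a median of 4556 to 3531 CPM. For conjugation enzymes the direction depends on scaling: 5 of 49 rose and 21 fell, against 17 higher and 12 lower with library totals alone.

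Other lists of liver functions moved in part. Of 32 genes of the urea cycle and amino acid metabolism 19 fell and 6 rose, and of 22 genes of glucose metabolism 11 fell and 2 rose. Of 17 genes of iron and metal handling 11 rose and 3 fell, or 4 higher without the block. The ferritin chains Fth1 and Ftl1, which store iron, rose by 0.46 ± 0.04 and 0.39 ± 0.04 in 12 of 12 animals. Tfr2, the iron sensor of hepatocytes, went the other way, from 388, 490 and 528 CPM in ethanol to 258, 313 and 357 CPM in formalin without overlap (-0.62 ± 0.03, adjusted p = 9.8e-14). Of the 19 clock genes 9 fell and 4 rose, or 0 and 2 without the block, and Clock itself rose without overlap from 142, 149 and 162 CPM to 168, 179 and 198 CPM (0.26 ± 0.03, adjusted p = 1.6e-08). Immediate early genes (8 of 29 higher, 6 lower) lay near or below the background shares, and of the interferon-stimulated genes 9 of 36 were higher and 14 lower. Calls lay near the shares over all genes for collagens and matrix (9 of 28 higher, 7 lower), the cytoskeleton (11 of 32 and 9) and SREBP targets (7 of 30 and 10). Of 34 proteasome subunits 3 were higher (8.82%) and 10 lower (29.4%). With library totals alone SREBP targets turned to 11 and 5 and proteasome subunits to 11 and 6. Fewer genes rose than fell among PPARA targets (5 and 14 of 30, or 4 lower without the block) and acute phase genes (0 and 9 of 21, or 0 lower without the block), and few of the cell cycle genes passed in either direction (1 and 4 of 26). For NRF2 targets 8 of 17 were higher and 5 lower, and the ferritin chains are among the 8.
Actb and Gapdh, often used as reference genes, moved in opposite directions. Actb rose by 0.13 ± 0.03 (adjusted p = 0.00092, 11 of 12 animals), a call lost without the block (adjusted p = 0.088), and Gapdh fell by 0.27 ± 0.04 (adjusted p = 3.0e-06, 11 of 12 animals lower).

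**Figure D5:**
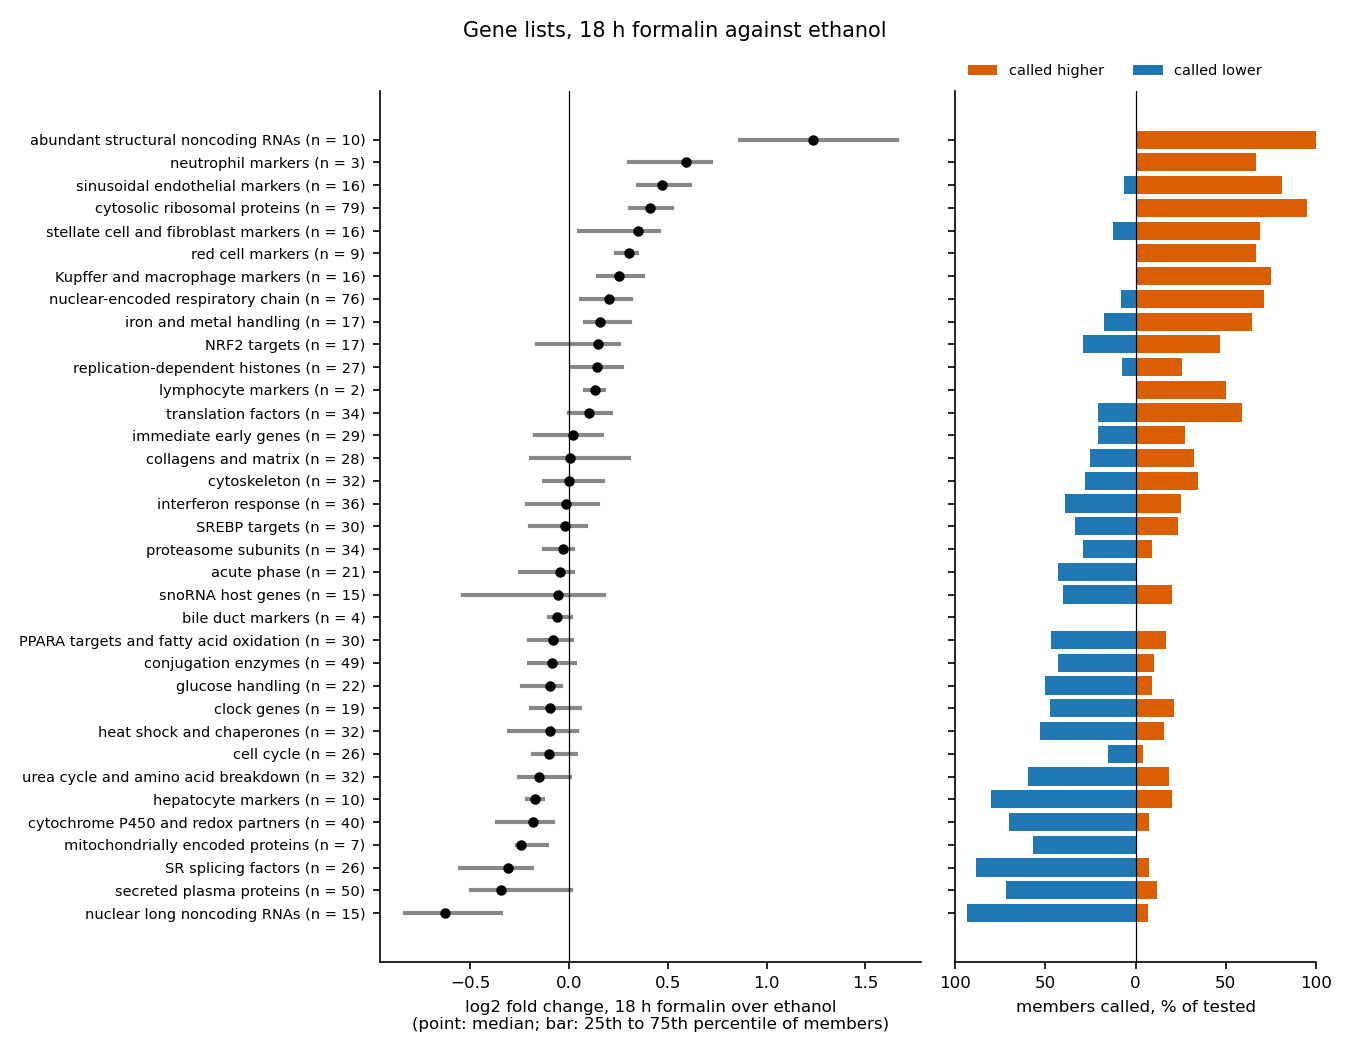
Left, the median log2 fold change of each gene list (point) and the 25th to 75th percentile of its tested members (bar), formalin against ethanol; right, the percent of tested members called higher and called lower. Structured noncoding RNAs and ribosomal proteins lie to the right of 0, and nuclear long noncoding RNAs, plasma proteins and the SR splicing factor list lie to the left.

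Markers of the other liver cell types were measured beside these groups. In bulk tissue fewer cells of a type and less RNA per cell cannot be told apart. Of 10 hepatocyte markers, 8 fell and 2 rose (median -0.17), and their sum ranged from 48587 to 84103 CPM in ethanol and from 38840 to 71076 CPM in formalin. Of 16 markers each, 13 rose and 1 fell for sinusoidal endothelium (median 0.47), 12 rose and 0 fell for Kupffer cells (0.25, or 4 higher without the block) and 11 rose and 2 fell for stellate cells (0.35). Their sums ranged from 659 to 1086, 391 to 1071 and 488 to 730 CPM in ethanol and from 879 to 1330, 552 to 1206 and 554 to 930 CPM in formalin. The endothelial rise was not shared by all animals. In phenobarbital animal 20B the median paired difference was -0.02, with 7 of 16 endothelial markers above 0. It was 0.11 in phenobarbital animal 18D and lay between 0.31 and 0.92 in the remaining animals. Fewer markers of blood cells and bile ducts were counted often enough to be tested: 6 of 9 red cell markers, 2 of 3 neutrophil markers, 1 of 2 lymphocyte markers and 0 of 4 bile duct markers rose, and none fell. The tissue was liver by its markers in both states, with every hepatocyte marker detected, and the part of these markers in the falls of plasma protein and P450 messages was not tested. Against frozen liver the median endothelial marker was at -0.45 in ethanol and -0.04 in formalin, the Kupffer marker at -0.43 and -0.14, the stellate marker at -0.42 and -0.10, and the hepatocyte marker at -0.26 and -0.46 (log2 differences).
Levels of single markers varied widely between animals. Aqp1, a water channel of endothelium, was at 36.2, 65.3 and 95.2 CPM in ethanol and at 74.2, 120 and 166 CPM in formalin (0.76 ± 0.07, adjusted p = 7.1e-10). Lrat, which stores vitamin A in stellate cells, rose by 0.79 ± 0.06 and Lyz2, the lysozyme of macrophages, by 0.64 ± 0.05, each in 12 of 12 animals. Stab2, an endothelial scavenger receptor, gave no call (-0.06 ± 0.05, adjusted p = 0.304), and neither did the macrophage complement gene C1qa (0.03 ± 0.06, adjusted p = 0.682). Col1a1 had an adjusted p of 0.040 (-0.30 ± 0.12) with 3 of 12 animals higher, and DESeq2 gave 0.090. Tmsb4x, which binds actin monomers and is abundant in blood and endothelial cells, rose by 1.00 ± 0.06, with ranges of 28.3 to 80.7 CPM in ethanol and 70.0 to 136 CPM in formalin.

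Formalin and ethanol portions were compared within each treatment as well. Fitted on the 6 control animals, 6617 of 13752 genes (48.1%) were called, and on the 6 phenobarbital animals, 5480 of 13828 (39.6%). Without the block the counts were 4159 and 2206. Of the 4584 genes called in both fits, 4581 had the same direction and 3 the opposite. The difference between the treatments, tested as an interaction in edgeR's quasi-likelihood test over 24 libraries, gave 0 of 14402 genes (0%), with 1044 at an unadjusted p under 0.05 and a smallest adjusted p of 0.128. That count of 0 depends on the tool and the filter: DESeq2 called 9 genes, and edgeR without the filter on low counts called 110, all of which are among the 14402. Leaving out the control animal 21C gave 4.
Fold changes of the leading genes had the same sign in both treatments. Srsf5 fell by 1.28 ± 0.04 in controls and by 1.24 ± 0.04 in phenobarbital animals, Rpph1 rose by 1.38 ± 0.08 and 1.19 ± 0.13, and Itih1 fell by 0.75 and 0.59. The drug's marker gene Cyp2b10 spanned a wide range in both states, from 0.264 to 2539 CPM over the 12 ethanol portions and from 0 to 2090 CPM over the 12 formalin portions. Within phenobarbital animals it fell by 0.36 on the log2 scale, and over all animals by 0.37 ± 0.06 (adjusted p = 1.6e-05, lower in 12 of 12), but the control animals had few reads of it, and its fold change was -0.66 with DESeq2 and -1.43 on the deposited log2 values. Cyp3a11 was near its threshold (-0.16 ± 0.06, adjusted p = 0.020), and 7 of the alternative settings moved it past 0.05. None of the 11 library measures differed between the treatments in how far formalin moved it (smallest adjusted p 0.905).

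Seen over all expressed genes, formalin portions lay farther from frozen liver than ethanol portions did. The median absolute log2 difference of a portion from the frozen portion of its own animal was 0.165 ± 0.0252 in ethanol and 0.236 ± 0.0180 in formalin, higher in formalin in 12 of 12 animals (adjusted p = 0.00107, exact permutation of signs). The spread between animals was much alike, with a biological coefficient of variation of 17.4% in ethanol and 17.7% in formalin. Which state was nearer to frozen liver differed by gene group: for ribosomal proteins the median log2 difference was -0.11 in ethanol and 0.29 in formalin, for plasma proteins -0.27 and -0.54, for P450 genes -0.21 and -0.45, and for nuclear long noncoding RNAs 0.17 and -0.34. For the respiratory chain (-0.24 and -0.05) and the markers of endothelial, Kupffer and stellate cells the formalin portions were the nearer.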

How the data were processed

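RNA was sequenced from stranded total-RNA libraries after removal of ribosomal RNA (Ribo-Zero, TruSeq), per the labels' protocols. Sources used here give neither the counting tool, nor how it treated strand, nor the kit used to isolate RNA from paraffin. The submitters' processing notes name CASAVA, STAR 2.5, edgeR and the builds GRCm38 and mm10. The authors deposited whole-number read counts per Ensembl gene, which were the input of every main test, and log2 values (log2 CPM), which were used in an alternative only. Gene names, types, lengths and GC content came from GENCODE M21 (GRCm38), which matched 46954 of 47373 genes. Unmatched genes held at most 0.0396% of counts, and the 92 spike-in rows held 0.

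The animal code in the titles pairs the portions: deviations from the group means correlated between portions of the same animal at 0.600 to 0.841 (median 0.748, 10067 genes) and at a median of -0.150 between other animals. No 2 libraries held identical values. Genes were filtered with filterByExpr, scaled by TMM and fitted by glmQLFit with animal and state as terms (edgeR 4.0.16, R 4.3.3), with a Benjamini-Hochberg threshold of 0.05. Each standard error was obtained by dividing the size of the log2 fold change by √F. Paired library measures used exact sign permutations. P-values of the blocked fit and of the paired measures reflect how far the difference between the states varies from animal to animal. With 1 portion of each liver per state, that spread includes variation between portions and libraries. Alternatives were no block, DESeq2 1.42.0 size factors and test, library totals, no filter, a mean of at least 5 CPM, limma 3.58.1 (voom with quality weights, and on the deposited log2 values), thinning to 9977406 reads, removal of mitochondrial and small RNAs, removal of a GC and length trend, and leaving out each animal. Scripts were tested on simulated counts in which mean gene levels did not differ between animals or treatments, so the effect of the block was not tested.

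Comparison, gene lists and the rule for named genes were chosen with earlier results of these data known. The rule took the 8 largest rises and 8 largest falls with a mean of at least 5 CPM, the 10 most abundant genes, 12 fixed genes and, for each list, the members with the smallest p. It yields 278 genes, from which 97 were used. Rny3, the retained-intron split, the snoRNA families and the host genes were chosen after seeing the data.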

Additional observations from a re-analysis of the deposited data

Results flagged for a closer look

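In groups of 6 libraries, a library was marked where its gap to the nearest of the others took a larger part of the range than Dixon's critical value allows. Of 432 such tests 36 were marked, and chance marks about 1 in 20.

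The ethanol portion of control animal 21C was marked repeatedly. Its mitochondrial share was 3.49% (others 2.11 to 2.57%), its small structured RNA share 1.47% (1.02 to 1.15%) and its share on genes under 500 bases 1.63% (1.19 to 1.32%). This portion was also apart for Scarna13 (31.9 CPM), mt-Nd4 (2478 CPM), Apob (19519 CPM), C4b (1443 CPM), Itih3 (1353 CPM), Trf (816 CPM), Calr (655 CPM), Fth1 (625 CPM), Fn1 (3886 CPM) and Actb (763 CPM). The formalin portion of 21C was apart in its protein-coding share (95.4%, others 94.8 to 95.0%), in Itih3 (824 CPM) and in Cyp2e1 (4374 CPM). Itih3 was thus low in both portions of this liver.

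Control animal 8A was apart in both portions for Por, at 137 CPM in ethanol (others 58.4 to 71.1) and 85.4 CPM in formalin (37.2 to 45.3). Its ethanol portion was low for Snord13 (0.661 CPM), Rnu11 (2.05 CPM), Rgs5 (37.5 CPM), Lrat (12.2 CPM) and Gpr182 (9.45 CPM). Its formalin portion was low for Rnu12 (3.16 CPM) and Hsd3b7 (3.47 CPM) and high for Hnf4a (919.8 CPM). Control animal 8C was apart in ethanol for Rsrp1 (197 CPM) and Cyp2b10 (1.09 CPM, others 0.264 to 0.459) and in formalin for Rnu11 (17.0 CPM).

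The formalin portion of phenobarbital animal 75C, the animal with the smallest median difference of small structured RNAs, was low for Scarna2 (25.7 CPM, others 51.5 to 68.4) and Ftl1 (718 CPM) and high for Snhg17 (15.0 CPM), the host of a snoRNA. Its ethanol portion was low for Lrat (9.78 CPM). Single marks fell on phenobarbital animal 20B in ethanol for Clk1 (79.3 CPM), control animal 82B in formalin for mt-Nd1 (2042 CPM) and control animal 90C in formalin for Canx (652.5 CPM).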

How the results depend on the processing

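Calls in the 24 libraries numbered 8053 (4034 higher, 4019 lower). Without the replicate block they were 5812 (2947 higher, 2865 lower), and leaving out each animal gave 7721 to 8069 (3555 to 4042 higher, 3828 to 4243 lower). DESeq2 called 7175, of which 7165 were among the 8053. The other settings kept the total within 1.5 times, and library totals alone turned the balance to 5423 higher and 2771 lower. Without the block or pairing, calls fell to 4159 in controls and 2206 in phenobarbital animals. The interaction gave 0 calls, 9 with DESeq2, 110 without the filter on low counts and 0 to 4 when each animal was left out. The difference in genes detected had no stable sign, 27.7 genes with all animals and -18.4 to 63.7 as each was left out. Of the 97 genes, 83 kept their call under every alternative with a test and 14 did not. No gene changed direction while called. Alb, C3, Itih3, Per3, Hnf4a and Actb lost the call without the block (adjusted p 0.078, 0.114, 0.051, 0.072, 0.119 and 0.088), and Cyp3a11 and Col1a1 lost it under several settings. Calls were gained by Canx under 10 alternatives, by Snord17 and mt-Co1 without the filter, by Rpl6 and Apob with library totals, and by mt-Co1 and Stab2 without animal 8D. Removing the GC and length trend moved the median of small structured RNAs from 1.04 to 0.63. The cause was not tested. With 6 animals a treatment, small differences between treatments can be missed, and the smallest difference that could be detected was not computed.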
